A study of Mus musculus with 2 samples.

Results

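TGF-β pathway feedback inhibitors are the genes whose products hold back TGF-β signalling, and many of them are themselves switched on by it. The genes described here are the inhibitory SMAD genes Smad6 and Smad7, the corepressor genes Ski, Skil and Tgif1, the ubiquitin ligase genes Smurf1 and Smurf2, and the membrane inhibitor genes Ldlrad4 and Pmepa1. Members were the probe sets that the platform annotation assigns to exactly 1 gene with one of these 9 symbols. The rule found 20 probe sets for the 9 genes, of 45037 probe sets and 18193 named genes on the array. On this kind of array several short probes for one transcript are read together as a probe set and give 1 signal.

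Gene expression was measured in CD4 T cells from the spleen of wild type C57BL/6 mice, sorted with magnetic beads to a stated purity above 98%. Both groups were stimulated through the T cell receptor and CD28 for 2 days, cultured for 3 more days and harvested after 5 days in all. The CD103+ Th1 group received IL-4 (3 ng/ml), IFN-γ (10 ng/ml) and TGF-β (3 ng/ml), and the Th1 group received IL-12 (1 ng/ml) and an IL-4 antibody (1 µg/ml). The CD103 protein is an integrin chain, αE, and Th1 cells are the helper T cells that produce IFN-γ. The cultures differ in several agents at once, so the part of TGF-β in any difference cannot be told apart from that of IL-4, IFN-γ, IL-12 and the antibody. Each group had 1 array, and the number of mice behind them is not stated in the labels. No test was therefore possible, and "higher" and "lower" below compare these 2 arrays only, CD103+ Th1 against Th1, with no replicate check.

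TGF-β binds a pair of serine/threonine kinase receptors, which phosphorylate the signalling SMAD proteins SMAD2 and SMAD3. These join SMAD4, enter the nucleus and activate genes. Inhibitors act at each step: membrane proteins keep SMADs from the receptor, inhibitory SMADs occupy the receptor and bring in SMURF ligases that mark it for degradation, and nuclear corepressors silence SMAD target genes. In T cells TGF-β restrains effector differentiation and induces Itgae, the CD103 gene, and Foxp3, the regulatory T cell factor.

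Promoter windows were read for some of the members to describe the sequence at their starts. A link between these sequences and the ratios was not tested. RefSeq windows (GRCm38.p6) of 250 bases before to 50 after a start were matched by symbol for Ski, Smurf1, Smad6, Smurf2 and Tgif1, the last with 5 starts. The stretches upstream of the whole gene are printed 5′ to 3′ for Ski, Smurf2 and Tgif1, 3 genes at least 2-fold higher in CD103+ Th1. Capitals mark the SMAD-binding letters CAGAC or, on the other strand, GTCTG. The stretches lie on the minus strand at chr4:155222536-155222785 for Ski, at chr11:106920748-106920965 for Smurf2 and at chr17:70853533-70853782 for Tgif1.
Ski: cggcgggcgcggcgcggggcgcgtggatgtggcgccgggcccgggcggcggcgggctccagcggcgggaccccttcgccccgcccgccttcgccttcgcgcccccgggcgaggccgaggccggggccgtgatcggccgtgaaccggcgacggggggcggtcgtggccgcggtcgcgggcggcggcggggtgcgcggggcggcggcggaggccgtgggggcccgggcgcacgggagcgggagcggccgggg
Smurf2: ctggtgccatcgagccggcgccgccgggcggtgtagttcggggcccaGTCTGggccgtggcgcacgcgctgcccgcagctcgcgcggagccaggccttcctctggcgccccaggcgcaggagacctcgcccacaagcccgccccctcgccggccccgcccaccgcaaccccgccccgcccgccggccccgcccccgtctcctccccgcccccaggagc
Tgif1: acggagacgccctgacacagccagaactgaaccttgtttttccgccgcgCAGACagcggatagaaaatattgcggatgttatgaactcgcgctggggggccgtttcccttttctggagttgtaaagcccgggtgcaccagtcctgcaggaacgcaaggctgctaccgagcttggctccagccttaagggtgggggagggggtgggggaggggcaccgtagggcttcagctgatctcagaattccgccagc
The Ski stretch held no match, and the others 1 each. In the whole window of 300 bases, Ski had 0 matches, Smurf2 had 2 and the outermost Tgif1 start had 1. Such matches are common, since 49.6% of the 32851 windows in the table hold at least 1. The windows differed more in base composition. In the Ski window 85.3% of the bases were G or C, against 80.3% for Smurf2, 58.0% for the outermost Tgif1 start and a median of 52.7% over all windows. The inner Tgif1 starts had 37.3% to 68.7% G or C and 0 to 2 matches. Smurf1 was higher by less than 2-fold, and Smad6 had too little signal for a ratio. Their windows held 76.3% and 66.3% G or C, with 2 and 0 matches.

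The palindrome GTCTAGAC, the SMAD-binding element as first selected in vitro, was found in 1 of the windows read here and in 0.213% of all windows. No window of Smad7, Skil, Ldlrad4 or Pmepa1 was searched, so nothing is known here of these letters at their starts. The window with the palindrome belongs to Smad6, and the site is shown because Smad6 is also the member with no signal above the floor. The palindrome, in capitals, starts 4 bases before the start on which the window was built (minus strand, chr9:64022046-64022073). That start is an inner one. The stretch upstream of the whole Smad6 gene begins only at 64022086, so the site lies inside the annotated gene.
Smad6: ccgccaaagtGTCTAGACtggcatatga
A match is a description of letters and not evidence of binding.

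In CD103+ Th1, 7 of the 9 inhibitor genes were higher by 2-fold or more, Smurf1 was higher by less, and Smad6 had no signal above background on either array. Folds ran from 2.22 for Smurf2 to at least 33.9 for Ldlrad4, and no member was at least 2-fold lower. Over all 11194 measured genes, 5.04% passed 2-fold upward and 4.87% downward. Ldlrad4, Pmepa1 and Skil, 3 of the members, were also past 4-fold, which 0.965% of all measured genes were in the same direction. Background was set by a floor at the median signal of both arrays, 78.5 in arbitrary units, which stands in for a detection call. A signal under the floor on 1 array was raised to it, which makes the fold a lower bound ("at least"), and no ratio was formed where both arrays were under it. Where a gene has several probe sets, its ratio is that of the brightest measured one, by mean log2 signal over both arrays. Ldlrad4 lay above the floor in CD103+ Th1 alone, so any ratio it received had to be above 0. Of the other 7 measured members, all above the floor on both arrays, 6 were at least 2-fold higher, with a median log2 ratio of 1.58 over the 7.

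**Figure D1:**
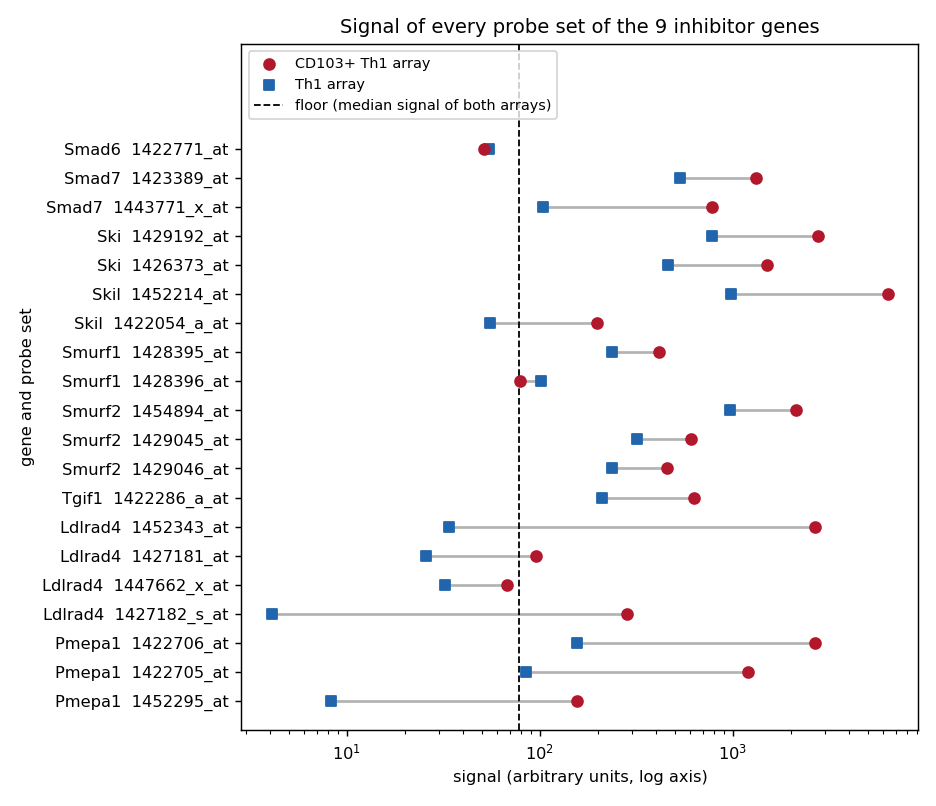
Signal of each of the 20 probe sets (arbitrary units, log axis) on the CD103+ Th1 array (red circles) and the Th1 array (blue squares), 1 array each, with the floor of 78.5 as a dashed line. Of 13 probe sets above the floor on both arrays, 12 lie further right in CD103+ Th1, and the exception is the dimmer Smurf1 probe set. Another 5 lie above the floor in CD103+ Th1 alone.

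As reported here, with the floor at the median signal, the members at the membrane had the highest ratios. Pmepa1 encodes a membrane protein that holds SMAD2 and SMAD3 away from the receptor kinase. Its brightest probe set read 2669 in CD103+ Th1 and 156 in Th1, which is 17.2-fold higher. The second probe set read 1203 and 84.5, 14.2-fold higher, although the Th1 value lies just above the floor. The third read 156 in CD103+ Th1 and 8.30 in Th1, where the floor limits the fold to at least 1.99. The brightest and second Pmepa1 probe sets, above the floor on both arrays, therefore rank the arrays alike. The direction of the third was set by the floor, and its lower fold is a bound. With no floor its fold was 18.8, though from a Th1 signal far under the floor.

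Ldlrad4 encodes a related membrane protein that also keeps SMADs from the receptor. Its brightest probe set read 2657 in CD103+ Th1 and 33.8 in Th1, at least 33.9-fold higher. A second read 284 and 4.10, at least 3.61-fold higher. The other two were dim, with 95.9 and 25.9 on one and 67.9 and 32.4 on the other, the latter under the floor on both arrays. All 4 Ldlrad4 probe sets lay under the floor in Th1, so the gene has no measured Th1 level and its fold is a bound. Among all measured genes ranked from the highest ratio down, with bounds at their bound, Pmepa1 stood at position 9. Ldlrad4 has no measured rank.

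Of the inhibitory SMADs, Smad7 was higher and Smad6 lay under the floor. SMAD7 occupies the activated TGF-β receptor and recruits SMURF ligases to it. The brightest Smad7 probe set read 1326 in CD103+ Th1 and 535 in Th1, 2.48-fold higher. The other read 785 and 104, 7.55-fold higher, and carries the suffix x, which marks probes that may pick up other transcripts. Both Smad7 probe sets were thus past 2-fold in the same direction, with log2 ratios of 1.31 and 2.92. SMAD6 acts mainly against BMP receptors. The 1 Smad6 probe set read 51.5 in CD103+ Th1 and 54.3 in Th1, under the floor on both arrays. With the floor at the 25th percentile its log2 ratio was -0.08, and with a pseudocount and no floor -0.06.

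The nuclear corepressor genes were all higher. SKI and its relative SKIL, also called SnoN, bind SMAD complexes on DNA and bring in histone deacetylases. Ski read 2749 in CD103+ Th1 and 780 in Th1 on its brightest probe set, 3.52-fold higher. The second Ski probe set read 1500 and 459, 3.27-fold higher. These 2 ratios lie 0.11 apart on the log2 scale, closer than the median distance of 0.37 between the highest and lowest probe set over 5238 genes with at least 2 measured probe sets.

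Skil was the most increased of the corepressor genes on its brightest probe set. It read 6345 in CD103+ Th1 and 984 in Th1, 6.45-fold higher. The dimmer Skil probe set read 198 in CD103+ Th1 and 55.4, under the floor, in Th1, at least 2.52-fold higher. The lower fold of the second is a bound. Its direction was set by the floor, which it passed in CD103+ Th1 alone. TGIF1 is a homeodomain protein that recruits corepressors to SMAD2. Its 1 probe set read 626 in CD103+ Th1 and 210 in Th1, 2.99-fold higher, and with no second probe set this value has no check within the gene.

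**Figure D2:**
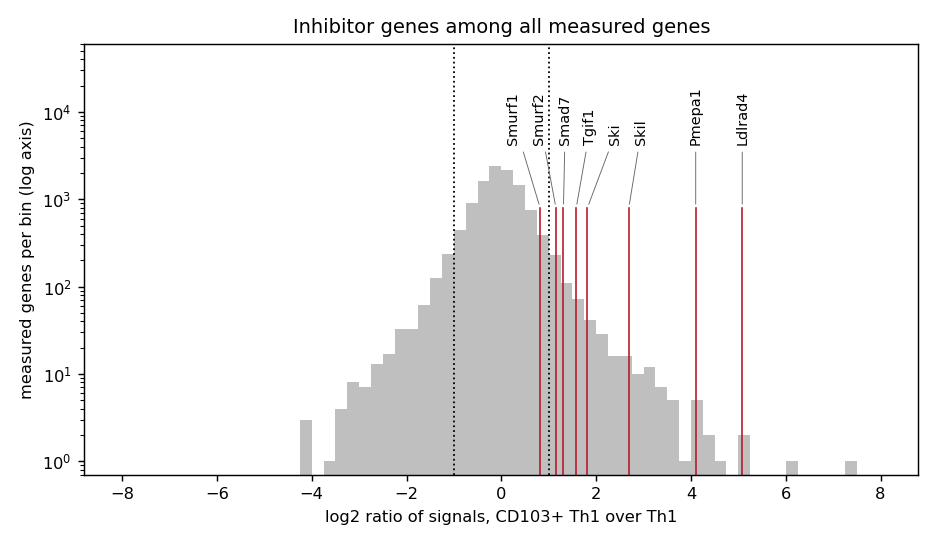
Log2 ratio of signals, CD103+ Th1 over Th1, for 11194 measured genes (grey bars, log axis for the number of genes), with the 8 measured inhibitor genes as red lines and 2-fold as dotted lines. All 8 lie right of 0, from Smurf1 at 0.82 to Ldlrad4 at 5.08, the last a bound.

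The SMURF ligase genes had the smallest ratios of the measured members. SMURF1 and SMURF2 are HECT-type ubiquitin ligases that mark receptors and SMAD proteins for degradation. Smurf2 read 2138 in CD103+ Th1 and 963 in Th1 on its brightest probe set, 2.22-fold higher. Its other probe sets read 605 and 318 on one, 1.90-fold higher, and 454 and 237 on the other, 1.92-fold higher. The 3 Smurf2 probe sets fall on both sides of the 2-fold limit but within 0.23 of each other on the log2 scale.

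Smurf1 did not reach 2-fold. Its brightest probe set read 417 in CD103+ Th1 and 237 in Th1, 1.76-fold higher. The second, close to the floor, read 79.4 and 101, 1.28-fold lower. Smurf1 is thus the 1 member whose measured probe sets point in opposite directions, which 35.9% of the 5238 genes with at least 2 measured probe sets also do.

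Agreement among probe sets, with the floor applied, differed widely between members. Of the 7 members with at least 2 measured probe sets, Smad7, Ski and Skil had every one at least 2-fold higher, which 1.97% of genes with at least 2 measured probe sets did. For Skil 1 of these folds is a bound, and its direction was set by the floor. At the level of probe sets, 12 of 18 measured ones passed 2-fold upward and 0 downward, beside 5.25% and 3.91% of all 24036 measured probe sets. Of the 18, 5 lay above the floor in CD103+ Th1 alone, so their direction was set by the floor. Of the 13 above the floor on both arrays, 9 passed 2-fold upward and 0 downward, beside 4.9% and 3.66% of all such probe sets. Probe sets of a gene share the RNA and the array and are no replicates. The spread within a gene was 4.79 on the log2 scale for Ldlrad4 and 3.11 for Pmepa1, and 99.9% of the genes compared had a smaller spread than Pmepa1. Both spreads take in bounds, so they depend on the floor. With no floor the Pmepa1 log2 ratios were 4.10, 3.83 and 4.23. Those of Ldlrad4 were 6.30, 6.11, 1.89 and 1.06, all from Th1 signals under the floor. With the floor at the 25th percentile of signals, 21.2, the Pmepa1 ratios ran from at least 2.88 to 4.10 and the spread fell to 1.22, since the bound of the third probe set lies higher there. At that floor the Ldlrad4 ratios ran from 1.06 to 6.30 over 4 probe sets, 1 of which had no ratio before.

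**Figure D3:**
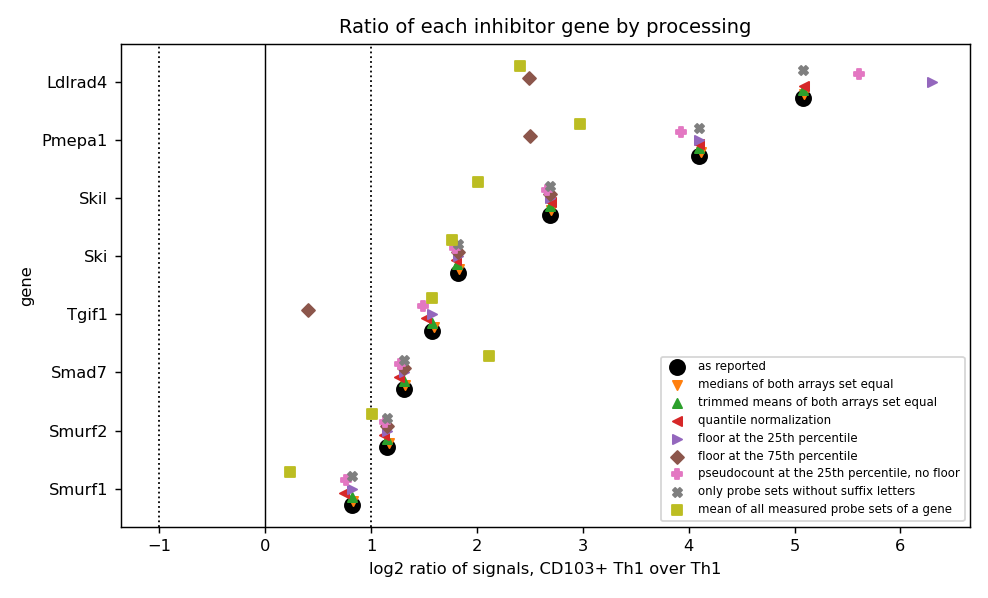
Log2 ratio of each inhibitor gene, CD103+ Th1 over Th1, as reported (black) and under 8 other ways of processing the same 2 arrays (coloured symbols). The 7 genes called at 2-fold stay right of the dotted line at 1, except Tgif1 with the floor at the 75th percentile. Its value there, 0.41, is a lower bound. Smad6 has no ratio as reported and is not drawn.

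The order of the members by ratio was Ldlrad4, Pmepa1, Skil, Ski, Tgif1, Smad7, Smurf2 and Smurf1. Without replicates no spread is available to say which neighbours in this order differ. With the mean over all measured probe sets of a gene in place of the brightest, Pmepa1 came first at a log2 ratio of 2.98, followed by Ldlrad4 at 2.41, Smad7 at 2.11 and Skil at 2.01. Ski came next at 1.76 and Tgif1 at 1.58, so the first 6 positions all changed. The means of Ldlrad4, Pmepa1 and Skil take in bounds, so they are bounds too and depend on the floor as well as on the probe sets. Smurf2 and Smurf1 remained last, at 1.00 and 0.23, the latter down from 0.82.

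The pathway's ligands, receptors and signalling SMADs showed no common direction beside their inhibitors. Of 22 genes with a probe set, 19 were measured. Of these, 3 passed 2-fold upward and 2 downward, beside 5.04% and 4.87% of all measured genes. The list median log2 ratio was 0.27, against 1.70 for the 8 measured inhibitors and -0.03 for all measured genes. The higher genes encode receptors. The activin receptor gene Acvr2a read 754 in CD103+ Th1 and 146 in Th1, 5.16-fold higher. Tgfbr1, the type I TGF-β receptor gene, read 2885 and 1010, 2.86-fold higher. Tgfbr2, the type II receptor gene, read 5861 and 2259 on its brightest probe set, 2.59-fold higher, and had a log2 ratio of -0.62 on its other. Smad3, which encodes the signalling SMAD, went the other way, with 450 and 1200, 2.66-fold lower on its brightest probe set and a log2 ratio of -0.13 on its other. Ltbp3, which encodes a protein that binds latent TGF-β, read 211 and 499, 2.37-fold lower. The inhibitor Smad7 and the signalling SMAD gene Smad3 thus lay on opposite sides in the same arrays.

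In a list of other negative regulators of receptors and SMADs, the median log2 ratio was -0.07. Of 19 measured genes, 0 passed 2-fold upward and 1 downward, beside 5.04% and 4.87% of all measured genes. The lower one is Wwp1, a HECT-type ubiquitin ligase of the same family as the SMURFs, which read 531 in CD103+ Th1 and 1355 in Th1 and so was lower by 2.55-fold. Its 3 probe sets had log2 ratios from -1.69 to -1.33. Tgif2, the relative of Tgif1, read 566 and 671, a log2 ratio of -0.25 where Tgif1 had 1.58. The BMP and activin pseudoreceptor gene Bambi read 154 and 170, a log2 ratio of -0.15. Spsb1, whose product also restrains TGF-β receptor signalling, was placed with the other SMAD target genes below and is not counted here. Its log2 ratio was 4.48 on the brightest probe set.

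Genes whose products act on the inhibitors or with them stayed mostly within 2-fold. All 12 measured genes of the ligases and deubiquitinases that act on the inhibitors or on SMADs lay within 2-fold, with a median of 0.03. Among them Rnf111, which encodes Arkadia, the ligase that degrades SKIL, SKI and SMAD7, read 1485 in CD103+ Th1 and 1027 in Th1, a log2 ratio of 0.53. For the 11 measured corepressor partners of SKI, SKIL and TGIF1 the median was 0.00. Among them 1 passed 2-fold upward, beside 5.04% of all measured genes. It is Hipk2, a nuclear kinase, with 2574 and 1137, 2.26-fold higher, and its 6 measured probe sets ranged from -0.09 to 1.18.

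Other SMAD target genes went both ways. Among 16 measured, with a median log2 ratio of 0.24, 5 passed 2-fold upward and 2 downward, beside 5.04% and 4.87% of all measured genes. Itgae led the list with 13248 in CD103+ Th1 and 82.1, near the floor, in Th1. Spsb1, a SOCS-box gene whose product is also known to restrain TGF-β receptor signalling, read 2158 and 97.0, and Nt5e, the CD73 gene, read 4490 and 270 on their brightest probe sets. The cell cycle inhibitor gene Cdkn2b was at least 3.89-fold lower, with 22.8 and 305. These target genes therefore span from -1.96, a bound, to 7.33 on the log2 scale, while the measured inhibitors span from 0.82 to 5.08. The lists were described by counts and medians only, and no difference between lists was tested.

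**Figure D4:**
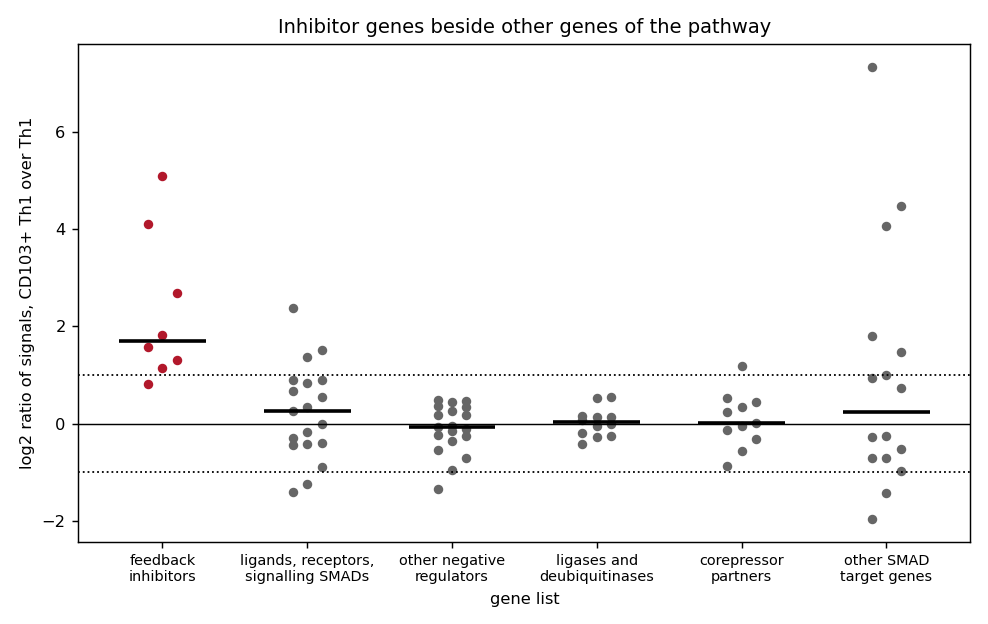
Log2 ratio of signals, CD103+ Th1 over Th1, for each measured gene of the feedback inhibitors (red) and of 5 other lists of the pathway (grey), with the list median as a black bar and 2-fold as dotted lines. The median is 1.70 for the inhibitors and lies between -0.07 and 0.27 for the other lists. Spsb1, at 4.48, is drawn with the other SMAD target genes and not with the other negative regulators.

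The genes next to the members on the chromosome had no common direction. The nearest protein-coding gene on each side, by start in the GRCm38.p6 gene table, was taken for each member whatever its value. Of 18 neighbours, 17 had a named probe set, 12 were measured, 1 passed 2-fold upward and 1 downward, beside 5.04% and 4.87% of all measured genes, and the median log2 ratio was -0.12. The higher neighbour is Zbp1, an interferon-inducible nucleic acid sensor gene beside Pmepa1, with 2758 in CD103+ Th1 and 1215 in Th1. The lower one is Smad3, which lies beside Smad6. Next to Ldlrad4, Cep192 read 2156 and 2298 and Fam210a 179 and 300, both lower in CD103+ Th1 by less than 2-fold, and next to Skil, Prkci read 714 and 999. Ctif, beside Smad7, read 146 and 82.7, 1.77-fold higher.

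Depth and cell makeup touch all of these values. Median signals were close (78.0 on the CD103+ Th1 array, 78.8 on the other), so no scaling was added. In RNA from whole cultures, more cells that express a gene and more RNA per cell cannot be told apart. Of the T cell markers, 7 of 7 with a probe set were above the floor on both arrays, with log2 ratios from -0.17 to 0.63 and a summed signal of 54097 and 47817. The summed signal of 4 CD8 T and NK cell markers was 6967 in CD103+ Th1 and 3351 in Th1. Klrk1 was the largest part of both sums, with 3293 and 2163, a log2 ratio of 0.61. Cd8a, by its brightest probe set, and Cd8b1 were at least 2-fold higher. The lowest log2 ratio among the 5 measured Cd8a probe sets was 0.24 and the highest 2.16. The NK cell marker Ncr1 lay under the floor on both arrays. The part of cells with these markers in the inhibitor ratios was not tested. Of 4 B cell markers, Cd79a, Ms4a1 and Pax5 were below the floor in both cultures, Cd22 just above it, and their summed signal was 181 and 235. Of 6 myeloid and dendritic cell markers, 4 lay under the floor on both arrays, Adgre1 reached it in Th1 alone (79.1), and Csf1r read 118 and 187, with a sum over the 6 of 250.2 and 454. The 4 stromal and endothelial markers summed to 640 and 611, most of it from Pecam1, which read 527 and 465.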

How the data were processed

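The authors deposited linear signal intensities, 1 for each probe set on each array, and the submitters' processing notes name GCOS, with no version. The scaling target is not given in the sources used here. Probe sets were named by the platform annotation, updated by gene identifier to GRCm38.p6 symbols. Of 45037 probe sets, 34945 had 1 symbol, 932 had several and 9160 had none listed. Stag1, an old synonym of Pmepa1, is now another gene, and its 6 probe sets were left out. The floor, ratios and counts at 2-fold were computed in Python 3.11.15 with pandas 2.3.3 and tested on simulated data. Ratios were taken per probe set, CD103+ Th1 over Th1, after the floor and then log2. The members and lists were chosen with earlier results of these data known. Named genes were all members and, per list, up to 4 genes past 2-fold with the largest absolute ratio. Ltbp3, Tgif2, Bambi, Rnf111 and all neighbours that are named were added after their values were seen. Alternatives covered scaling, floor, pseudocount, probe set choice and fold threshold.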

Additional observations from a re-analysis of the deposited data

How the results depend on the processing

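The count of inhibitor genes at least 2-fold higher stayed between 6 and 7 under every alternative that kept the 2-fold threshold, and no inhibitor gene was at least 2-fold lower in any. At 1.5-fold it was 8 of 8 measured, beside 12.4% of all measured genes. At 4-fold it was 3 of 8, beside 0.965%, and for probe sets 5 of 18, beside 0.857% of all measured probe sets. The number of array-wide calls also moved, and so did the number of measured genes. With the floor at the 25th percentile, 974 genes were higher and 1206 lower (2494 and 2549 probe sets). These are 6.17% and 7.63% of 15798 measured genes. With the floor at the 75th percentile, the counts were 267 and 199 (459 and 295 probe sets). These are 3.72% and 2.78% of 7169 measured genes, where the shares as reported were 5.04% and 4.87%. With a pseudocount and no floor, 968 genes were lower, and 2160 probe sets were higher and 2134 lower. At 1.5-fold the counts were 1391 and 1499 genes (3320 and 2795 probe sets), and at 4-fold 108 and 86 genes (206 and 130 probe sets). A floor sets both how many genes receive a ratio and the bound of those under it. With the mean over the probe sets of a gene Smurf1 fell to 0.23. At the higher floor Tgif1 had a log2 ratio of at least 0.41, a bound under 2-fold, because its Th1 signal then lies under the floor. Tgif1 has no value without suffixed probe sets. With that higher floor Ldlrad4 was at least 2.49 and Pmepa1 at least 2.50, both bounds below the 2.69 of Skil. Smad6 and Smurf1 had no ratio there. Ldlrad4 ranged from 2.41 to 6.30 over the alternatives, and Ski from 1.76 to 1.83. With a pseudocount the median of the ligand, receptor and signalling SMAD genes turned to -0.08, and that of the other SMAD targets was -0.25 with the higher floor or without suffixed probe sets. No paired analysis was possible because each group has 1 array. With 1 array per group, nothing here measures the variation between cultures.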
